A study of Rattus norvegicus with 16 samples.

Results

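Expression of 7 zinc importer genes of the Slc39a family, which encodes the ZIP proteins, was followed in the rat diencephalon: *Slc39a1*, *Slc39a3*, *Slc39a6*, *Slc39a7*, *Slc39a10*, *Slc39a11* and *Slc39a13*. On the array they were read by all probe sets whose only gene symbol in the platform's probe table was one of these 7 names. The 7 genes were among 14217 genes named by a probe set, and their 10 probe sets were among 31042 probe sets without controls. A probe set is the group of short array probes that reads 1 transcript region. Of the 10, 8 were as bright as the median probe set or brighter and were tested together with the rest of 15521 such probe sets, and each of the 7 genes had at least 1 tested probe set.

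ZIP proteins move zinc into the cytosol, either across the plasma membrane or out of organelles, and ZnT proteins of the Slc30a family move it the other way. Metallothioneins bind zinc in the cytosol, and the transcription factor MTF1 senses it and acts through short DNA elements called metal response elements. In mouse cells, MTF1 represses transcription of *Slc39a10*, and this repression is eased when zinc is scarce. In neurons zinc is both a structural ion of proteins and, at some synapses, a substance released with glutamate.

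The arrays measured total RNA from the diencephalon, the part of the brain that holds thalamus and hypothalamus, of 16 male SD rats, each array from another rat and 4 in each of 4 groups. All 16 rats started at 5 weeks of age. The ZD rats were kept for 10 days on a zinc-deficient diet (0.6 mg zinc in each kg). The PF rats were pair-fed, with the amount that ZD rats ate of a sufficient diet (30 mg in each kg). In the zinc recovery experiment, the ZR rats had the same 10 deficient days and then 6 days on a fixed 13 g ration of the zinc-sufficient diet, and the ZRPF rats were pair-fed the sufficient diet for 10 days before the same 6 days. All 4 groups had eaten the control diet during adaptation and took a preference test with 300 mM NaCl. Each deficient arm started with 9 rats and each pair-fed arm with 6. The submitters chose the rats for the arrays as average ones and removed some 16-day rats by their salt preference, which limits how well the 4 stand for their arm. In whole tissue, fewer cells of a type and less RNA per cell cannot be told apart.

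The values were MAS5 signals, linear intensities that the authors scaled to a common mean per array, and they are given here as log2 signal. Median signals ranged from 156 to 172 over the 16 arrays. No pair of arrays was identical, and the highest correlation between arrays was 0.987. Of the marker genes set down, 10 of 10 of thalamus and 10 of 11 of hypothalamus were bright enough to be tested. Of cerebral cortex 1 of 6 was, so the labelled tissue matched its markers. The tested hypothalamus markers summed to 18314 to 27127 in ZD and 21697 to 24993 in PF. Their sums were 24976 to 27599 in ZR and 27993 to 29642 in ZRPF, without overlap. The mean log2 level of these markers, taken relative to all arrays, did overlap. It was 0.03 to 0.16 in ZR and 0.13 to 0.18 in ZRPF. Thalamus markers summed to 23025 to 26834 in ZD and 25734 to 29162 in PF, and the ZR and ZRPF ranges overlapped. The part of these regions in the member differences was not tested. The log2 ratio of the beta-actin 3′ to 5′ probes, a measure of how far labelled RNA reached towards the 5′ end, was 1.37 to 1.67 in ZD and 1.49 to 1.73 in PF. It was 2.05 to 2.20 in ZR and 2.05 to 2.48 in ZRPF, so it did not overlap between the 10-day and the 16-day experiment.

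*Slc39a10*, which encodes a plasma membrane importer, was the only member with no overlap between ZD and PF. Its promoter is shown because the gene is the one that MTF1 represses in mouse, and that of *Slc39a7* because it held the most matches to metal response element cores among the members. The 250 bases before the start of *Slc39a10* (RefSeq, GRCr8, chr9:62405183-62405432, plus strand) and of *Slc39a7* (chr20:4824809-4825058, plus strand) are given 5′ to 3′, with capitals for matches to the cores TGCACNC and TGCGCNC on either strand.
Slc39a10: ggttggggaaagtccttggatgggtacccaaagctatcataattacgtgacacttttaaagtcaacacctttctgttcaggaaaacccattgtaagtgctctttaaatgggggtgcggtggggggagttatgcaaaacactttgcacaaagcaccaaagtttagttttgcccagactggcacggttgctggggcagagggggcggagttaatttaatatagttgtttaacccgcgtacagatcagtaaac
Slc39a7: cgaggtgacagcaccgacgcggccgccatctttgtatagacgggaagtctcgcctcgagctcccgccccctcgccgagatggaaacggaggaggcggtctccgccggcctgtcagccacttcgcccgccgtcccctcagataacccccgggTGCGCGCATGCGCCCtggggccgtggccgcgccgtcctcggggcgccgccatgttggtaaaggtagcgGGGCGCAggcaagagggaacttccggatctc
The *Slc39a10* window held 0 matches. Bases after the start were not searched in any gene, so matches there would be missed. The *Slc39a7* window held 4, of which 2 overlapped each other, and the window of a second start listed for this gene (chr20:4824847-4825096) had the same 4. Of the other members, *Slc39a11* had 2 overlapping matches, *Slc39a13* had 2, *Slc39a1* had 1, and *Slc39a3* and *Slc39a6* had 0. *Mt1* had 6, *Mt2A* 4, *Mt3* 3 and *Slc30a1* 2. At least 1 match was present in 20.6% of all 33469 promoters of this length and in 4 of the 7 member genes.

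Log2 signals of *Slc39a10* were 11.39, 11.46, 11.54 and 11.35 in ZD, against 11.22, 11.23, 11.25 and 11.06 in PF. All 4 ZD arrays lay above all 4 PF arrays, and this gene was 1 of 8 tested member probe sets with such a gap, against 4.19% of all tested probe sets without overlap in either direction. The difference was 0.25 ± 0.06 (SE) on the log2 scale, with a 95% interval of 0.11 to 0.38 and a fold of 1.19. In limma its unadjusted p was 0.00125, the 69th smallest of 15521, and its adjusted p was 0.265, so it did not pass the threshold of 0.05. An exact two-sided permutation test gave 0.0286, the smallest p that 4 against 4 arrays allow.

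After the 6 days of zinc, *Slc39a10* stood at 11.07, 10.98, 11.08 and 11.18 in ZR, against 11.07, 11.05, 11.18 and 11.02 in ZRPF. These groups overlapped throughout, and their difference was 0.00 ± 0.06 (SE) with a 95% interval of -0.13 to 0.14 (limma, adjusted p = 0.998). The change in the 16-day experiment minus that in the 10-day experiment was -0.25 ± 0.09 (SE, 95% interval -0.44 to -0.05). Its unadjusted p was 0.0151 and its adjusted p 0.747 (limma), so a difference between the experiments did not pass. In order of group mean, *Slc39a10* was highest in ZD (11.43 ± 0.08, SD, n = 4), then PF (11.19 ± 0.09), ZR (11.08 ± 0.08) and ZRPF (11.08 ± 0.07), and the last 3 overlapped with their neighbours in this order.

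The ependyma and tanycyte markers ran in the same direction as *Slc39a10* in the 10-day experiment. Of 10 set down, 7 were tested, and their summed signal was 4673 to 5474 in ZD and 3943 to 4443 in PF, without overlap. In the 16-day experiment it was 3923 to 4379 in ZR and 4722 to 5284 in ZRPF, also without overlap. The 10 brain endothelium markers summed to 9445 to 11058 in ZD and 8608 to 9716 in PF. None of the 121 marker and zinc gene probe sets was at 0 on any array. The part of ependymal, tanycyte and endothelial cells in the *Slc39a10* difference was not tested.

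Markers of meningeal and mural cells, which form the brain's coverings and the walls of its vessels, also ran with *Slc39a10* in the 10-day experiment. Of 14 set down, 11 were tested, and their summed signal was 6132 to 10882 in ZD and 5888 to 7074 in PF, 5071 to 6437 in ZR and 5468 to 7998 in ZRPF. The sum was highest in ZD 8, then ZD 3, ZD 2 and ZD 9, and PF 4 was the highest PF array, as for *Slc39a10* itself. With the list's mean log2 level as a covariate, an alternative chosen after seeing the data, the ZD minus PF difference of *Slc39a10* was 0.18 (limma, unadjusted p = 0.0414, adjusted p = 0.46, against 0.214 to 0.611 over all 21 alternatives).

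**Figure D1:**
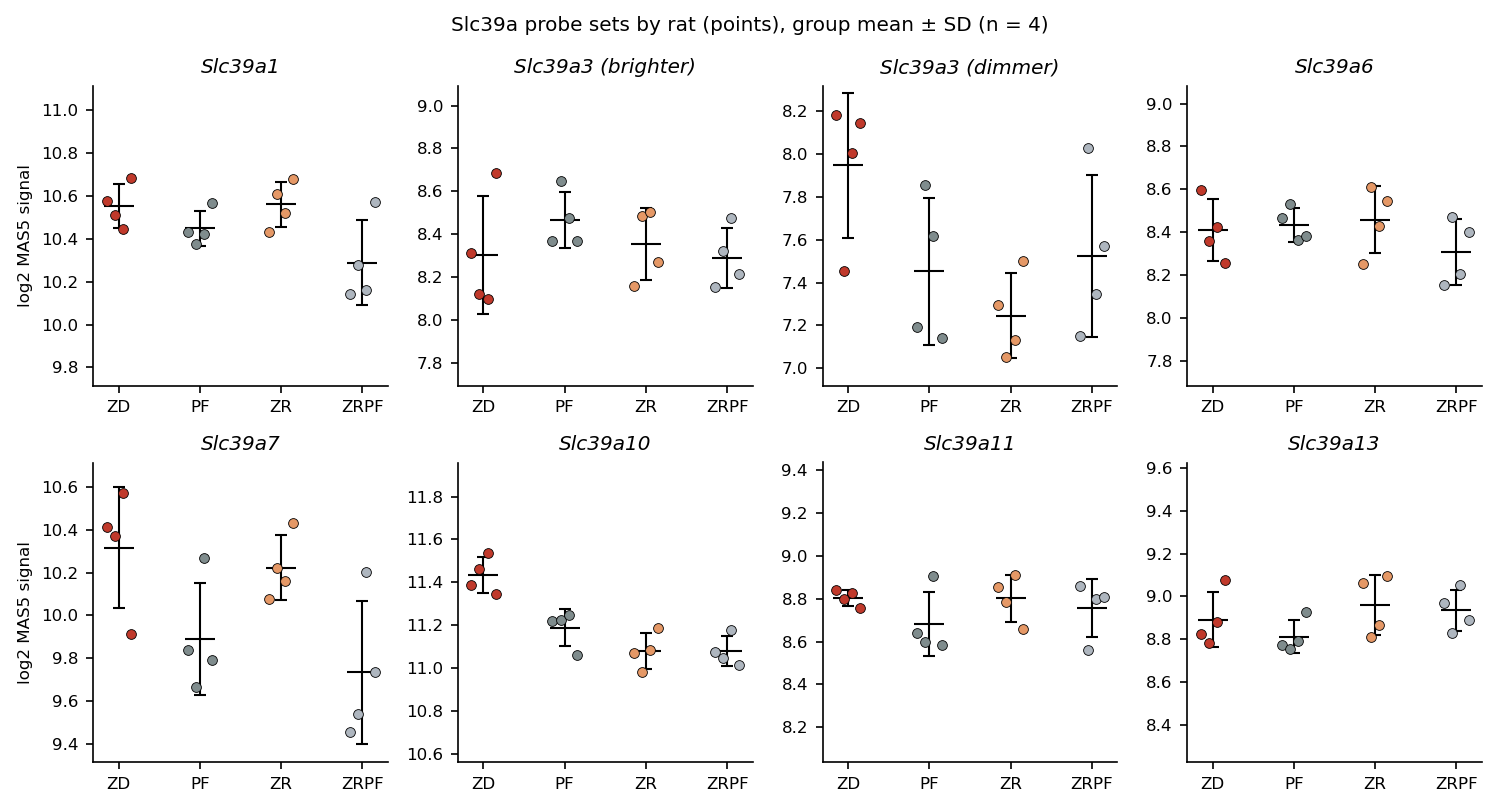
Log2 MAS5 signal of the 8 tested Slc39a probe sets, 1 point per rat, with group mean and SD (n = 4) for ZD, PF, ZR and ZRPF on the horizontal axis; all panels span the same range of log2 units. ZD points of Slc39a10 lie at 11.35 or higher and PF points at 11.25 or lower, while the groups of every other panel overlap within each experiment.

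*Slc39a7*, which encodes the importer that releases zinc from the endoplasmic reticulum, had the higher mean after the zinc-deficient diet in both experiments, without passing the threshold in either comparison. Its log2 signals were 10.41, 10.37, 10.57 and 9.91 in ZD, against 9.84, 9.67, 10.27 and 9.79 in PF. They were 10.08, 10.22, 10.16 and 10.43 in ZR, against 9.46, 9.54, 10.20 and 9.74 in ZRPF. The groups overlapped through PF 4, which lay within the ZD range, through ZD 9, which lay within the PF range, and through ZRPF 5, which lay within the ZR range.

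For *Slc39a7* the ZD minus PF difference was 0.43 ± 0.16 (SE, 95% interval 0.09 to 0.77; limma, adjusted p = 0.536). The ZR minus ZRPF difference was 0.49 ± 0.16 (95% interval 0.15 to 0.83, adjusted p = 0.927). Exact two-sided permutation tests gave 0.0571 between ZD and PF and 0.0857 between ZR and ZRPF. Averaged over the experiments the difference was 0.46 ± 0.11 (95% interval 0.22 to 0.70), a fold of 1.37, with an unadjusted p of 0.000834, the 20th smallest of 15521, and an adjusted p of 0.527 (limma). The change in the 16-day minus that in the 10-day experiment was 0.06 ± 0.23 (95% interval -0.42 to 0.54).

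Choroid plexus markers ran in the same direction as *Slc39a7* in the 10-day experiment. Of its 16 markers 9 were tested, and their summed signal was 9724 to 21996 in ZD and 8817 to 10287 in PF. It was 7951 to 34966 in ZR and 8380 to 36892 in ZRPF. With the list's level as a covariate, the ZD minus PF difference of *Slc39a7* was 0.24 (adjusted p = 0.684, against 0.381 to 0.94 over all 21 alternatives), and the ZR minus ZRPF difference was 0.55. The same covariate left *Slc39a10* at 0.23 in ZD minus PF. The meningeal and mural sums had the same highest and lowest ZD arrays as *Slc39a7*, ZD 8 and ZD 9, and the same highest PF array, PF 4. With that list as the covariate, the *Slc39a7* difference was 0.05 in ZD minus PF (limma, unadjusted p = 0.778, adjusted p = 0.94) and 0.61 in ZR minus ZRPF (unadjusted p = 0.000264, adjusted p = 0.512). The average was then 0.33 (unadjusted p = 0.00388, adjusted p = 0.442), and the change in the 16-day minus that in the 10-day experiment 0.56 (unadjusted p = 0.027, adjusted p = 0.483).

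*Slc39a7* also varied more from rat to rat than most genes of its brightness. Its pooled SD within groups was 0.27 log2 units, larger than that of 95.4% of the 3225 tested probe sets within 0.5 log2 units of its mean signal. *Slc39a10* had a pooled SD of 0.08, smaller than that of all but 6.66% of the tested probe sets and of all but 19.5% of the 1714 within 0.5 log2 units of its mean signal. *Slc39a1*, *Slc39a6*, *Slc39a11* and *Slc39a13* lay between 0.11 and 0.14, and both *Slc39a3* sets at 0.19 (brighter) and 0.32 (dimmer).

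The group means of the other members were ordered differently from gene to gene. *Slc39a7* was highest in ZD (10.32 ± 0.28, SD, n = 4), then ZR (10.22 ± 0.15), PF (9.89 ± 0.26) and ZRPF (9.73 ± 0.34). *Slc39a1* was highest in ZR (10.56 ± 0.11), then ZD (10.55 ± 0.10), PF (10.45 ± 0.08) and ZRPF (10.29 ± 0.20). *Slc39a11* was highest in ZD (8.80 ± 0.04) and lowest in PF (8.68 ± 0.15), and *Slc39a13* was highest in ZR (8.96 ± 0.14) and lowest in PF (8.81 ± 0.08). Tested sets of *Slc39a3* and *Slc39a6* had their lowest mean in ZRPF, except the dimmer *Slc39a3* set, whose lowest was ZR (7.25 ± 0.20) and whose highest was ZD (7.95 ± 0.34). For each of these genes, all neighbours in the order overlapped.

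The plasma membrane importers *Slc39a1*, *Slc39a3* and *Slc39a6* had no adjusted p under 0.05 in either zinc comparison. *Slc39a1*, which is expressed in most tissues, had 10.58, 10.51, 10.45 and 10.68 in ZD, against 10.43, 10.37, 10.42 and 10.57 in PF. In the 16-day experiment it had 10.43, 10.61, 10.52 and 10.68 in ZR, against 10.14, 10.28, 10.16 and 10.57 in ZRPF. Groups overlapped in both, in the 16-day experiment through ZRPF 6. The differences were 0.10 ± 0.09 (SE) for ZD minus PF and 0.27 ± 0.09 for ZR minus ZRPF, the second with a 95% interval of 0.08 to 0.46, an unadjusted p of 0.00703 and an adjusted p of 0.927 (limma).

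*Slc39a3* was read by 2 tested probe sets that did not move together. On the dimmer one, log2 signals were 8.18, 7.45, 8.00 and 8.15 in ZD, against 7.19, 7.86, 7.62 and 7.14 in PF. On the brighter one they were 8.31, 8.12, 8.10 and 8.69 in ZD, against 8.37, 8.65, 8.48 and 8.37 in PF. The ZD minus PF difference was 0.50 ± 0.20 (SE) on the dimmer set and -0.16 ± 0.13 on the brighter one (limma, adjusted p = 0.581 and 0.800). In the 16-day experiment the dimmer set had 7.30, 7.05, 7.13 and 7.50 in ZR, against 7.15, 8.03, 7.35 and 7.57 in ZRPF, and the ZR minus ZRPF difference was -0.28 ± 0.20. The brighter set had 8.16, 8.48, 8.51 and 8.27 in ZR, against 8.15, 8.32, 8.47 and 8.21 in ZRPF, with a difference of 0.06 ± 0.13. Groups overlapped on both sets in both experiments, and the sets correlated at 0.20 over the 8 arrays of the 10-day and at -0.25 over the 8 of the 16-day experiment. Which of them reads the gene better cannot be told from the table.

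*Slc39a6*, a close relative of *Slc39a10*, had log2 signals of 8.60, 8.36, 8.42 and 8.25 in ZD, against 8.47, 8.53, 8.36 and 8.38 in PF. It had 8.25, 8.61, 8.43 and 8.54 in ZR, against 8.15, 8.47, 8.20 and 8.40 in ZRPF. Its differences were -0.03 ± 0.11 (SE) in ZD minus PF and 0.15 ± 0.11 in ZR minus ZRPF, with 95% intervals of -0.25 to 0.20 and -0.08 to 0.38. Both untested probe sets of the gene were dim. One had group means of 5.49 in ZD, 5.55 in PF, 5.87 in ZR and 5.35 in ZRPF, and the other ranged from 1.94 to 6.12 over the 16 arrays.

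Both members that encode importers of the Golgi and other inner membranes also had no adjusted p under 0.05 in either zinc comparison. *Slc39a13* had 8.83, 8.78, 8.88 and 9.08 in ZD, against 8.77, 8.76, 8.79 and 8.93 in PF, and a difference of 0.08 ± 0.09 (SE). It had 9.06, 8.81, 8.87 and 9.09 in ZR, against 8.97, 8.83, 9.05 and 8.89 in ZRPF, and a difference of 0.02 ± 0.09. In humans, loss of this gene causes a connective tissue disorder. *Slc39a11*, from a divergent branch of the family, had 8.84, 8.80, 8.82 and 8.75 in ZD, against 8.64, 8.60, 8.90 and 8.59 in PF, and a difference of 0.12 ± 0.10, or 0.20 without PF 4 (limma, unadjusted p = 0.0543, adjusted p = 0.668). It had 8.86, 8.79, 8.91 and 8.66 in ZR, against 8.86, 8.56, 8.80 and 8.81 in ZRPF, and a difference of 0.05 ± 0.10. For both genes the 95% intervals of the differences lay within -0.17 and 0.32, and the groups overlapped.

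Over the 8 tested probe sets, ZD minus PF was positive for 6, with a median of 0.11, against 52.5% positive and a median of 0.01 over all tested probe sets. None of the 8 had an adjusted p under 0.05 in limma, where the share over all probe sets was 0%. An unadjusted p under 0.05 was found for 3 of the 8 (*Slc39a10*, *Slc39a7* and the dimmer *Slc39a3* set), against 7.86% of all. ZR minus ZRPF was positive for 7 of 8, with a median of 0.06, against 48.3% positive and a median of -0.005 over all. Here too none had an adjusted p under 0.05, against 0.00644% of all, 2 had an unadjusted p under 0.05 (*Slc39a1* and *Slc39a7*), against 5.21%, and none was without overlap, against 2.98%. The 7 positive differences in ZR minus ZRPF included *Slc39a10* at 0.0013, *Slc39a13* at 0.0237 and *Slc39a11* at 0.0469. The sign of each of these changed in some alternatives.

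For the change in the 16-day minus that in the 10-day experiment, none of the 8 had an adjusted p under 0.05 (0% of all tested probe sets), and 2 had an unadjusted p under 0.05, against 6.6% of all. These were *Slc39a10* at -0.25 ± 0.09 and the dimmer *Slc39a3* set at -0.77 ± 0.29. For the average of both changes, none had an adjusted p under 0.05, against 0.0193% of all, and 3 had an unadjusted p under 0.05, against 6.69%. These were *Slc39a7*, *Slc39a1* at 0.19 ± 0.06 and *Slc39a10* at 0.12 ± 0.05.

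**Figure D2:**
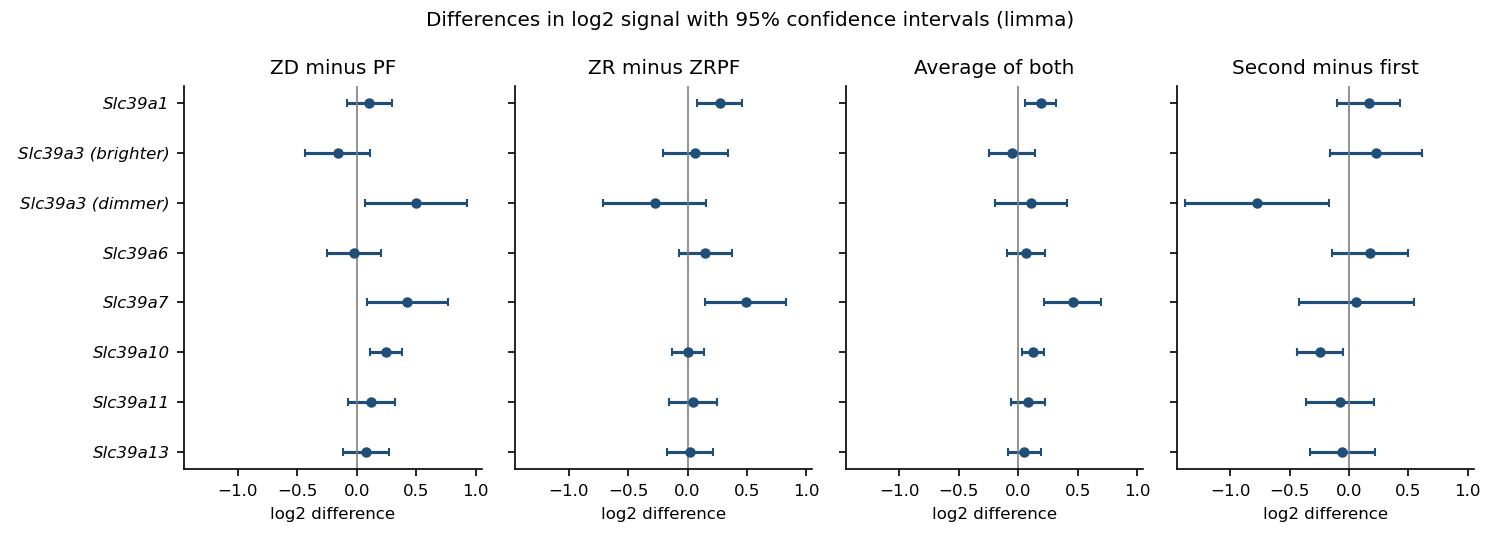
Differences in log2 signal with 95% confidence intervals from limma for the 8 tested Slc39a probe sets, in ZD minus PF, ZR minus ZRPF, the average of both, and the second minus the first. The interval of Slc39a7 lies above 0 in the first 3 panels, and that of Slc39a10 lies above 0 in the first and around 0 in the second.

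Comparisons across the experiments, ZR against ZD and ZRPF against PF, differ in age, in the later ration and in the run of the experiment. ZR against ZD also differs in zinc supply, since ZR rats had eaten the zinc-sufficient diet for 6 days. These differences cannot be told apart. They share their arrays with the comparisons above. In ZR against ZD, 2 of the 8 probe sets had an adjusted p under 0.05 (limma), both lower in ZR, against 17.3% of all tested probe sets. *Slc39a10* fell by 0.35 ± 0.06 (SE, 95% interval -0.49 to -0.22, adjusted p = 0.00118), and all 4 ZR arrays lay below all 4 ZD arrays. It was 1 of 8 without overlap, against 19.5% of all. The dimmer *Slc39a3* set fell by 0.70 ± 0.20 (95% interval -1.13 to -0.27, adjusted p = 0.0247), with overlap at ZD 3 and ZR 15, while the brighter set differed by 0.05 (95% interval -0.22 to 0.33). The dimmer set lay close to the filter of 7.35, with a mean log2 signal of 7.54 over all arrays and 7.25 in ZR. Its pooled SD was larger than that of 88.3% of the 2832 tested probe sets within 0.5 log2 units of its mean signal.

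The call of the dimmer *Slc39a3* set was lost when any of ZD 2, ZD 9, ZR 10 or ZR 13 was left out (adjusted p = 0.0709, 0.0711, 0.0702 and 0.0588), and with both ZD 8 and ZD 9 left out (0.179). With the beta-actin ratio as a covariate, an alternative chosen after seeing the data, the difference was -0.52 for that set (adjusted p = 0.739) and -0.36 for *Slc39a10* (adjusted p = 0.42). That covariate nearly coincides with the experiment, and with it 17 of 15521 probe sets passed in ZR against ZD, against 2692 without it. The adjusted p of *Slc39a10* ran from 0.000983 to 0.42 over 21 alternatives and passed in 19. With the meningeal and mural covariate, *Slc39a10* stood at -0.27 (adjusted p = 0.118) and the dimmer *Slc39a3* set at -0.83 (adjusted p = 0.137), and neither call held.

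**Figure D3:**
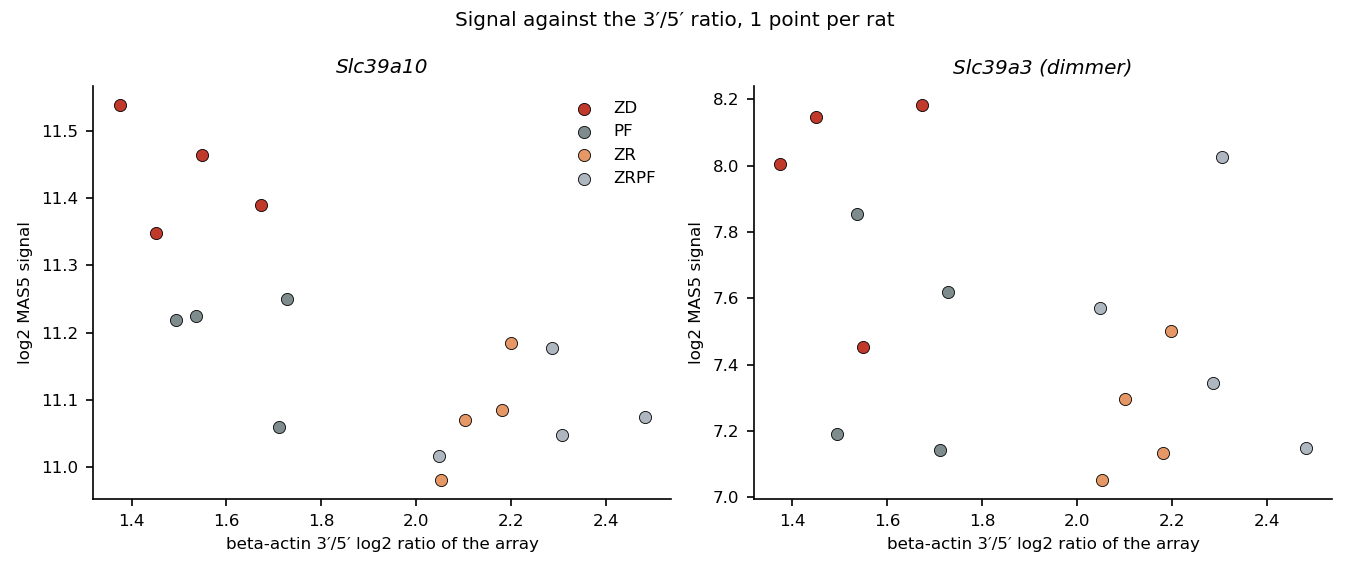
Log2 MAS5 signal of Slc39a10 (left) and of the dimmer Slc39a3 probe set (right) against the beta-actin 3′/5′ log2 ratio of the array, 1 point per rat, coloured by group. The ratio is 1.73 or lower on all ZD and PF arrays and 2.05 or higher on all ZR and ZRPF arrays, and within the lower range the ZD points of Slc39a10 lie above the PF points.

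In ZRPF against PF none of the 8 had an adjusted p under 0.05 (limma), against 15.7% of all tested probe sets. None had an unadjusted p under 0.05, against 30.1%, and none was without overlap, against 21.4%. Of 2430 probe sets that passed, 1475 were higher and 955 lower in ZRPF. With each array centred on its median, 975 were higher and 2146 lower, and with the beta-actin covariate 7 probe sets passed. *Slc39a10* differed by -0.11 ± 0.06 (SE, adjusted p = 0.271) and *Slc39a1* by -0.16 ± 0.09 (adjusted p = 0.24). Without ZRPF 6, *Slc39a1* stood at -0.26 with an adjusted p of 0.0431, against a range of 0.0431 to 0.972 over 21 alternatives.

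The other listed zinc genes that were tested had no adjusted p under 0.05 (limma) or unadjusted p under 0.05 in either zinc comparison. Of 7 further ZIP genes listed, 5 were measured and 1 was tested, *Slc39a14*, an importer of zinc and iron, which stood at 0.05 ± 0.09 (SE) in ZD minus PF and 0.01 ± 0.09 in ZR minus ZRPF. Of 10 ZnT exporters, 9 were measured and 6 tested, and 0 passed in either direction in the zinc comparisons. Of 7 genes listed as metallothioneins and *Mtf1*, 5 were measured and 3 tested, and 0 passed in those comparisons. In ZRPF against PF, 1 exporter and 1 metallothionein passed (limma), against 15.7% of all tested probe sets. These were *Slc30a9* at -0.26 ± 0.08 (SE, adjusted p = 0.0408) and *Mt3* at 0.32 ± 0.10 (adjusted p = 0.0338). The smallest p among all these genes in ZD minus PF was that of *Mt2A*, a metallothionein, at -0.22 ± 0.19 (unadjusted p = 0.255), followed by the exporter *Slc30a4* at -0.09 ± 0.09 (0.303) and *Mtf1* at -0.08 ± 0.13 on its dimmer tested set (0.534).

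In ZR minus ZRPF the smallest were those of the exporter *Slc30a5* at -0.19 ± 0.12 (SE, unadjusted p = 0.119), of *Mt3*, the metallothionein of the brain, at -0.16 ± 0.10 (0.126), and of *Slc30a6*, which pairs with *Slc30a5*, at -0.14 ± 0.09 (0.157). The adjusted p of these 3 was 0.927, 0.927 and 0.945 in limma. *Mt3* stood at 0.05 ± 0.10 in ZD minus PF, and the brighter *Mtf1* set at 0.00 ± 0.08 there and 0.04 ± 0.08 in ZR minus ZRPF. *Slc30a1*, the plasma membrane exporter that MTF1 induces, and *Mt1* lay below the filter. The log2 signal of *Slc30a1* was 4.56 to 5.45 in ZD, 4.88 to 5.33 in PF, 4.48 to 5.07 in ZR and 3.65 to 4.95 in ZRPF. Listed genes below the filter were not tested. Of these, 2 had no overlap between ZD and PF and are named after their values were seen. The share without overlap over all probe sets below the filter was not worked out, so this count has no comparison. Both genes lay under the filter of 7.35 on every array. Without detection calls, it is not known how far their values stand above background. The importer *Slc39a5* was higher in ZD, with log2 signals of 3.18 to 5.79, against 2.39 to 3.10 in PF. *Slc39a2* went the other way, with 3.18 to 4.46 in ZD, against 4.54 to 5.26 in PF. Both genes overlapped between ZR and ZRPF. *Slc39a5* had 2.85 to 4.99 in ZR, against 3.11 to 5.17 in ZRPF. *Slc39a2* had 2.82 to 5.78 in ZR, against 4.59 to 6.03 in ZRPF.

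Members did not vary as one group. Of the 28 pairs of tested probe sets, 8 correlated positively in both experiments, 3 negatively in both and 17 with opposite signs, over 8 arrays in each experiment. These arrays share group differences and scaling. *Slc39a7* and *Slc39a10* correlated at 0.81 in the 10-day and 0.44 in the 16-day experiment. *Slc39a6* and *Slc39a13* correlated at -0.63 and -0.47.

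For the brightest probe set of each member, the most similar probe set of another gene was sought. The search covered the 11783 tested probe sets that name 1 gene, a number that includes the member's own. Likeness was the smaller of the Pearson correlations in the 10-day and 16-day arrays (8 each). The nearest to *Slc39a10* were *Gnl2*, a nucleolar GTPase (0.81 and 0.95), *Wdr46*, a nucleolar protein (0.81 and 0.97), and *C7h12orf75* (0.90 and 0.79). The nearest to *Slc39a1* was *Zfp580* (0.88 and 0.88), to *Slc39a3* *Ap2s1*, an adaptor subunit of endocytosis (0.81 and 0.82), and to *Slc39a6* *Spats2l* (0.76 and 0.81). *Slc39a11* was nearest to *Mknk1*, a kinase of the MAP kinase pathway (0.82 and 0.83), and *Slc39a13* to *Ufsp1* (0.82 and 0.91). These values were picked as the highest and are given without a test.

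The probe set most similar to *Slc39a7* was one of *RT1-S3*, a class I gene of the rat major histocompatibility complex, with correlations of 0.90 and 0.79, and 0.67 over deviations from group means. Its log2 signals were 8.13, 8.35, 8.19 and 7.67 in ZD, against 7.48, 7.26, 7.62 and 7.42 in PF. They were 7.42, 7.53, 7.57 and 8.08 in ZR, against 7.08, 6.91, 7.07 and 7.04 in ZRPF. On this probe set, as for *Slc39a7*, ZD 9 was the lowest ZD array and PF 4 the highest PF array, whereas ZRPF 5 was the highest ZRPF array for *Slc39a7* and not on this set. On the other 3 probe sets of *RT1-S3*, PF 6 was the highest PF array (7.79, 8.07 and 7.34), and on 1 of them the lowest ZD array was ZD 8 (7.40) and not ZD 9 (7.70). *RT1-S3* belongs to a family of near-identical genes, so its probes may read several of them.

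**Figure D4:**
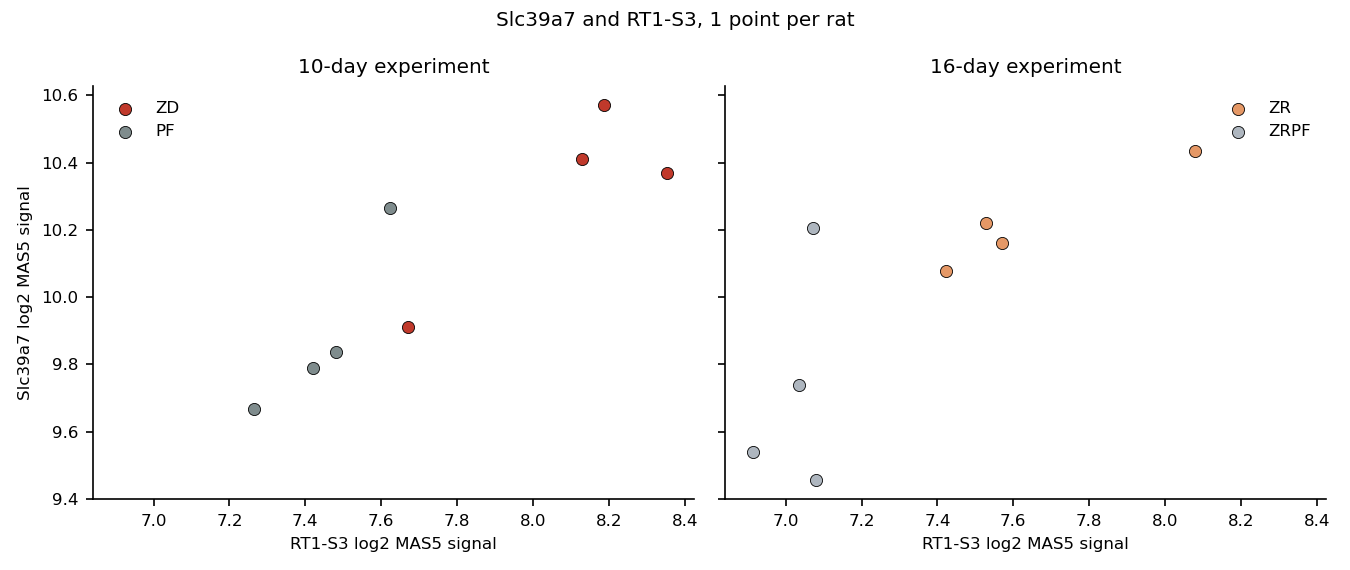
Log2 MAS5 signal of Slc39a7 against that of RT1-S3, 1 point per rat, in ZD and PF (left) and ZR and ZRPF (right). In the left panel ZD 9 lies at 9.91 for Slc39a7, within the PF points, and PF 4 at 10.27; in the right panel ZRPF 5 lies at 10.20, level with the ZR points.

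*Slc39a7* and *RT1-S3* both lie on chromosome 20 and are 197 genes apart in the RefSeq order. The genes around *Slc39a7* were looked at after this was seen. Of the 20 nearest with a tested probe set, 10 on each side, 1 correlated above 0.5 with it in both experiments, *Wdr46* (0.78 and 0.50). Its direct neighbours were *Rxrb*, a retinoid receptor (-0.23 and -0.69), and *Hsd17b8*, a steroid and fatty acid dehydrogenase (-0.28 and -0.06). *Pfdn6*, a prefoldin subunit next to *Wdr46*, ran the other way (-0.86 and -0.74), with an average difference of -0.23 ± 0.08 (SE, unadjusted p = 0.0132, adjusted p = 0.608 in limma). *Zbtb22*, a zinc finger gene on the same side, correlated at 0.39 and -0.04 with *Slc39a7* and had an average difference of 0.25 ± 0.08 (SE, unadjusted p = 0.00844, adjusted p = 0.55 in limma).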

How the data were processed

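The deposited table held linear signal intensities, made by the authors with MAS5 per the submitters' processing notes; its version is not given in the sources used here. RNA was amplified and biotin-labelled with a 3′ IVT kit, per the labels' protocols. Of 31099 probe sets, 57 controls were set aside. Signals were taken as log2 with no further normalization, and probe sets with a mean log2 signal of at least 7.35 (a signal of 163), the median, were tested. Symbols came from the platform table, updated by gene identifier; 20826 probe sets had 1 gene, 436 several and 9780 none. All 16 arrays entered 1 model per probe set in limma 3.58.1 under R 4.3.3 (lmFit, then eBayes with an intensity trend), with two-sided p values adjusted by Benjamini-Hochberg over 15521 probe sets and a threshold of 0.05. The pipeline was tested on simulated data. Levels of different probe sets are not compared as amounts of RNA. The number of arrays limits the precision.

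Members and gene lists were chosen with earlier results of these data known. Named were all member probe sets, the 3 listed zinc genes of smallest p in each zinc comparison, *Mt2A*, *Mt3*, *Mtf1* and *Slc30a1*. Also named were the listed zinc genes that passed in ZRPF against PF, and the most similar genes by the stated measure. *Slc39a14* was named as the only further ZIP gene tested, and *Mt1* as a gene below the filter. *Slc39a5* and *Slc39a2* were added after their lack of overlap between ZD and PF was seen. The neighbours of *Slc39a7* were added after the data were seen. Rat numbers 2, 4 and 6 occur in both ZRPF and PF, but are different rats, and the deviations of equal numbers correlated at 0.079, 0.020 and 0.035, so they were not used as pairs. Alternatives were other normalizations, filters, an offset of 32, fits without the trend or with array weights, covariates, and leaving out arrays. Promoter sequences were RefSeq's for GRCr8. Zinc genes without a probe set of their own, *Slc39a9* and *Slc39a12* among them, were not analysed here.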

Additional observations from a re-analysis of the deposited data

Results flagged for a closer look

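Among 40 sets of 4 arrays (10 probe sets in 4 groups), 3 held 1 array far from the other 3, where chance gives about 1 in 20 sets. For *Slc39a10*, PF 6 was the lowest PF array at 11.06, against 11.22 to 11.25 in the other 3. Without it, ZD minus PF was 0.20 (limma, adjusted p = 0.611, range over 21 alternatives 0.214 to 0.611). For *Slc39a11*, PF 4 was the highest PF array at 8.90, against 8.59 to 8.64 in the others, and it alone made the PF and ZD ranges meet. Without it, ZD minus PF was 0.20, against 0.12 with it (limma, adjusted p = 0.668, range over 21 alternatives 0.668 to 0.941). For the dimmest *Slc39a6* probe set, which was not tested, ZR 13 was the lowest ZR array at 2.95, against 5.01 to 5.26 in the others.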

How the results depend on the processing

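Of 1094 recomputed differences of the members, 1024 kept their direction and their side of the threshold, 60 changed sign, 9 lost a call and 1 gained one. No difference that had passed changed sign, and the cause of the changes was not tested. The average change of *Slc39a7* stayed between 0.33 and 0.54 and that of *Slc39a10* in ZD minus PF between 0.18 and 0.28, neither ever past the threshold. The 4 rats in each group limit what could be detected, and no detection calls were used, so the 2 dim *Slc39a6* sets have no known background.

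Sign changes were in ZD minus PF without ZD 8 and ZD 9 for *Slc39a13* (-0.0078) and *Slc39a6* (0.0436). In ZR minus ZRPF, *Slc39a10* stood at -0.0033 with quantile normalization, -0.0048 with array weights and -0.0010 with the *Gapdh* 3′ to 5′ covariate. In the difference between the changes, *Slc39a13* stood at 0.0038 with median centring and 0.0314 without ZD 8 and ZD 9, and *Slc39a7* at -0.0101 without those. In ZRPF minus PF, *Slc39a1* stood at 0.0554, *Slc39a11* at -0.0360 and *Slc39a6* at 0.0026 with the beta-actin covariate, *Slc39a11* at -0.0106 with median centring, and the dimmer *Slc39a3* set at -0.0162 with quantile normalization, -0.0135 with median centring and -0.2075 with the *Gapdh* covariate. In ZR minus ZD, *Slc39a13* stood at -0.0009 with the beta-actin covariate, *Slc39a1* at -0.0198 with median centring, *Slc39a11* at 0.1235 and the brighter *Slc39a3* set at -0.1531 with the *Gapdh* covariate, and *Slc39a6* at -0.0199 without ZD 8 and ZD 9.

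With the meningeal and mural covariate, the brighter *Slc39a3* set stood at 0.0342 in ZD minus PF, -0.0300 in the difference between the changes, 0.0192 in the average and -0.2265 in ZR minus ZD. *Slc39a13* stood at -0.0016 in ZR minus ZRPF and -0.0490 in ZR minus ZD, where *Slc39a11* stood at 0.0693 and *Slc39a7* at 0.4411.

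Leaving out 1 array at a time, signs changed for *Slc39a6* in ZD minus PF (-0.0896 to 0.0253). In ZR minus ZRPF they changed for *Slc39a13* (-0.0215 to 0.0725), *Slc39a10* (-0.0337 to 0.0345) and *Slc39a11* (-0.0186 to 0.0953). In the difference between the changes they did for *Slc39a13* (-0.1005 to 0.0061) and *Slc39a7* (-0.0709 to 0.2204), and in ZRPF minus PF for the dimmer *Slc39a3* set (-0.0967 to 0.2060). In ZR minus ZD they did for *Slc39a1* (-0.0332 to 0.0492), *Slc39a11* (-0.0375 to 0.0472), the brighter *Slc39a3* set (-0.0179 to 0.1794) and *Slc39a6* (-0.0016 to 0.1182).

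Probe sets past the threshold in ZD against PF numbered 0 to 3 when 1 array was left out (3 without ZD 8) and 1 without ZD 8 and ZD 9. In ZR against ZRPF they numbered 0 to 9 (9 without ZRPF 6), and 0 rather than 1 with quantile normalization, no filter, the brightest probe sets alone, no trend, only the arrays compared, and the *Gapdh* or beta-actin covariate. For the difference between the changes they numbered 0 to 1. For the average they numbered 0 to 5 (5 without ZRPF 6), and 0 rather than 3 with quantile normalization, no filter, the brightest sets alone, no trend, without ZD 8 and ZD 9, and with the *Gapdh*, choroid plexus, beta-actin or meningeal and mural covariate. In ZRPF against PF 771 passed with the *Gapdh*, 1423 with the choroid plexus and 7 with the beta-actin covariate. In ZR against ZD 1572 passed without ZD 8 and ZD 9, 786 with the *Gapdh*, 946 with the meningeal and mural and 17 with the beta-actin covariate. Member calls in ZRPF against PF numbered 0 to 1 with 1 array left out (1 without ZRPF 6). In ZR against ZD they numbered 1 to 2, 1 without ZD 8 and ZD 9, 1 among the brightest sets, to which the dimmer *Slc39a3* set does not belong, and 0 with the beta-actin or the meningeal and mural covariate. With a replicate block on the shared numbers of ZRPF and PF, 1085 probe sets passed against 2430, and 0 members did. Equal numbers there are not pairs.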
